A study of Mus musculus with 6 samples.

Results

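Laminins are the proteins around which basement membranes are built, and their chains are encoded by separate genes. The 9 laminin chain genes examined here, Lama1, Lama2, Lama3, Lama4, Lama5, Lamb1, Lamb2, Lamb3 and Lamc1, were taken by name from the 19938 genes that had a probe set of their own on the array, and each had 1 such probe set. The study hybridised 6 Affymetrix Mouse Gene ST 1.0 arrays, 3 with RNA of Bmi1-overexpressing neurospheres and 3 of neurospheres carrying the empty vector. Neurospheres are floating spheres of neural stem/progenitor cells, grown here with EGF and FGF from lateral ventricle walls of outbred CD1 mice aged 4 to 6 weeks. Bmi1, a Polycomb repressor that maintains neural stem cells, was delivered by the retroviral vector pCMMP-Bmi1, which also encodes eGFP, and the control vector encoded eGFP alone. In both groups, transduced cells were sorted on eGFP and plated at clonal density, 2000 cells in each well. The labels name the untagged construct, whereas the text of the study names a FLAG-tagged one. The cultures of a group are described as independent, but the mice behind them are not given, so the spread behind every p-value below is that between these samples and could be technical.

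Arrays were grouped by their titles, transduction and genotype labels, which do not differ, although the source label names the other group on all 6. On the log2 scale used throughout, the probe set of Bmi1 itself read 9.18, 8.36 and 8.42 in Bmi1-overexpressing neurospheres and 7.70, 8.40 and 8.31 in empty vector neurospheres. It therefore did not separate the groups (log2 difference 0.52, limma adjusted p = 0.38). Epha7, Cdkn2a and Commd3 had log2 differences of -3.82, -1.08 and -3.21 (limma, adjusted p = 0.00011, 0.0012 and 0.00037). The directions below are those of the arrays as labelled. Nes, Sox2 and Vim are from the list of neural stem/progenitor markers read below, in which Prom1 and Hes5 rose. They averaged 9.64, 10.42 and 12.25 in Bmi1-overexpressing neurospheres and 9.69, 10.20 and 12.27 in empty vector neurospheres. The level of genes that these cells do not use was taken from 1027 olfactory receptor genes, whose 95th percentile was 3.74. Of all 35557 probe sets, 5.7% passed the test, 1231 (3.46%) lower and 794 (2.23%) higher with Bmi1, so that 60.8% of the calls were falls, and with each array centred on its median 1467 fell and 593 rose (71.2% falls). That centring left the calls of the laminin genes as they were.

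Every laminin is a trimer of an alpha, a beta and a gamma chain wound together in a coiled coil. The short arms of the chains let laminins polymerise, the globular end of the alpha chain binds integrins and dystroglycan on the cell surface, and the gamma1 chain binds nidogen, which ties laminin to collagen IV. In the lateral ventricle wall, neural stem cells touch laminin-rich basement membrane on blood vessels and in the fine extravascular structures called fractones.

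The probe sets of Lama4, Lamb2 and Lamc1 fell in Bmi1-overexpressing neurospheres, with log2 differences of -1.10, -1.27 and -0.78, and no laminin gene rose. One of the 3 encodes an alpha, another a beta and the third a gamma chain. Against 3 falls among the 9 genes, 4.37% of all genes (871 of 19938) fell by the same rule, 7.35% passed in either direction, and a fall was called for 6.09% (843 of 13844) of those with a mean above the olfactory receptor 95th percentile. The laminin genes were chosen with earlier results of these data known, so these shares are background and do not test the set. The methods' t-test at its own thresholds called 2 of the 9, Lama4 and Lamb2, and 0.844% of all probe sets. Without adjustment, limma gave a p under 0.05 to 5 laminin genes that were lower and 0 that were higher, against 11.9% of all genes (2378 of 19938) lower and 10.8% (2148) higher. The median log2 difference was -0.31 over the 9 genes and 0.01 over all genes. In order of log2 difference from the lowest, Lamb2, Lama4 and Lamc1 were the 97th, 132nd and 281st of the 19938 genes. Since the arrays measure bulk RNA, fewer cells expressing a gene and less of its RNA in each cell cannot be told apart.

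**Figure D1:**
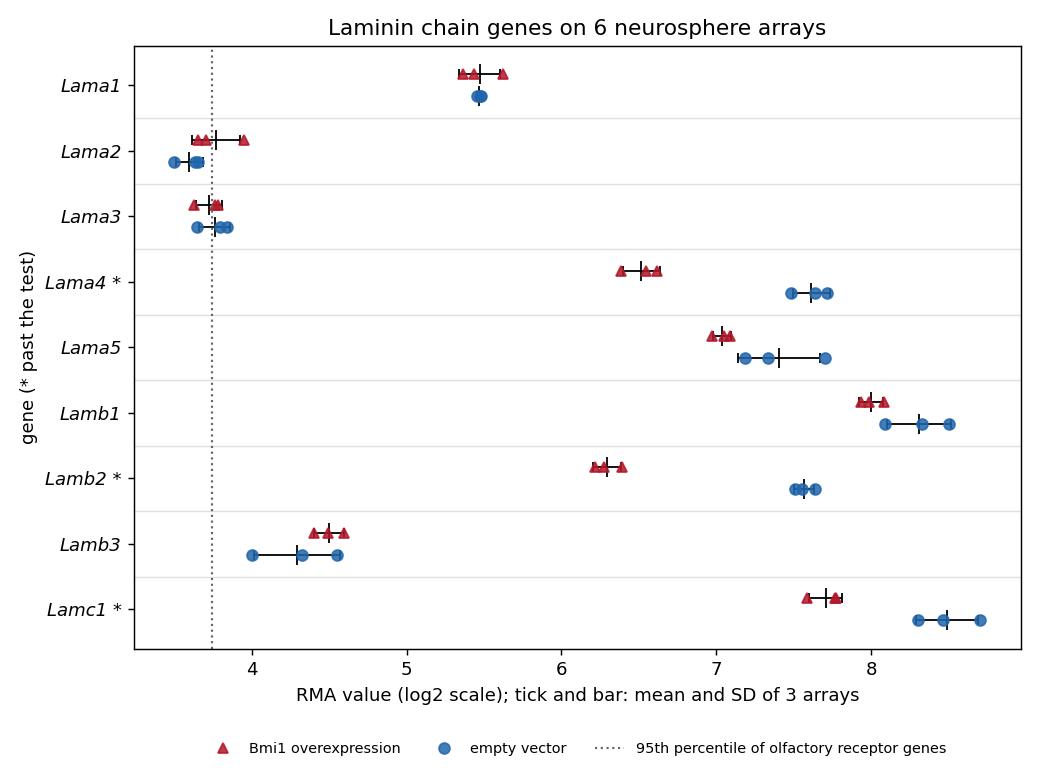
RMA values (log2 scale) of the 9 laminin chain genes on each array, with Bmi1-overexpressing neurospheres (triangles) above empty vector neurospheres (circles); ticks and bars are group means with SD (n = 3 each) and the dotted line is the 95th percentile of olfactory receptor genes. Lama4, Lamb2 and Lamc1 are separated by gaps of 0.87, 1.12 and 0.53, Lama5 and Lamb1 by 0.098 and 0.011, and the remaining 4 overlap.

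Among the alpha chains, the fall was that of Lama4, on chromosome 10, whose chain has a shortened arm and is characteristic of vascular basement membranes. Lama4 (probe set 10362538) read 6.38, 6.55 and 6.62 in Bmi1-overexpressing neurospheres and 7.48, 7.72 and 7.64 in empty vector neurospheres. All 3 Bmi1 arrays lay below all 3 control arrays, with a gap of 0.87. The means were 6.52 ± 0.12 with Bmi1 and 7.61 ± 0.12 with the empty vector (SD, n = 3 each), a log2 difference of -1.10 (SE 0.098, 95% confidence interval -1.33 to -0.86, limma adjusted p = 0.0026) and a 2.14-fold lower value.

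Lama5, on chromosome 2, encodes the alpha chain found in most mature basement membranes, vessels included. Its probe set (10490384) read 6.97, 7.05 and 7.09 in Bmi1-overexpressing neurospheres and 7.19, 7.70 and 7.33 in empty vector neurospheres. The groups did not overlap, but the control arrays were spread widely and the nearest arrays were only 0.098 apart. The log2 difference was -0.37 (95% confidence interval -0.70 to -0.037), which did not pass the test (limma, adjusted p = 0.21).

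Lama2, the alpha chain of muscle and of the glial basement membrane, and Lama3, the alpha chain of epithelia, were dim. Lama2 (10368409, chromosome 10) read 3.71, 3.66 and 3.95 in Bmi1-overexpressing neurospheres and 3.64, 3.66 and 3.50 in empty vector neurospheres. Lama3 (10453939, chromosome 18) read 3.63, 3.78 and 3.76 in Bmi1-overexpressing neurospheres and 3.65, 3.84 and 3.80 in empty vector neurospheres. For both, the groups overlapped and the values lay near the olfactory receptor 95th percentile, 5.84% and 5.06% of those genes being as bright or brighter. The log2 differences were 0.17 (95% confidence interval -0.070 to 0.42) and -0.04 (95% confidence interval -0.24 to 0.17), with adjusted p = 0.42 and 0.86 from limma.

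Lama1, on chromosome 17, encodes the alpha chain of the first embryonic basement membranes. Its probe set (10446473) read 5.43, 5.62 and 5.36 in Bmi1-overexpressing neurospheres and 5.48, 5.47 and 5.46 in empty vector neurospheres. The control arrays all lay within the range of the Bmi1 arrays, and the log2 difference of 0.0033 had a 95% confidence interval of -0.20 to 0.21 (limma, adjusted p = 0.99). A change as large as that of Lama4 lies outside this interval.

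Among the beta chains, Lamb2 fell, with the largest difference of the 9 laminin genes, whereas Lamb1 and Lamb3 did not pass the test. The beta2 chain is known from basement membranes of the neuromuscular junction, the kidney glomerulus and vessels, and the beta1 chain is widespread. The regions just upstream of both genes are shown so that the base composition of the beta chain gene that fell can be set beside that of one that did not pass. They are the 250 bases before the annotated start in RefSeq (GRCm38.p6), chr9:108479612-108479861 for Lamb2 and chr12:31265043-31265292 for Lamb1, both on the plus strand and printed 5′ to 3′ with CG dinucleotides in capitals.
Lamb2: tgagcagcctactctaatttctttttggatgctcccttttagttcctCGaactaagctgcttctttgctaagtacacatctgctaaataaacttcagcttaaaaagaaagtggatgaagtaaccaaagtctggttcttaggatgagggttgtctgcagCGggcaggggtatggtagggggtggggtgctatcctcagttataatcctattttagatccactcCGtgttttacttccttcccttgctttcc
Lamb1: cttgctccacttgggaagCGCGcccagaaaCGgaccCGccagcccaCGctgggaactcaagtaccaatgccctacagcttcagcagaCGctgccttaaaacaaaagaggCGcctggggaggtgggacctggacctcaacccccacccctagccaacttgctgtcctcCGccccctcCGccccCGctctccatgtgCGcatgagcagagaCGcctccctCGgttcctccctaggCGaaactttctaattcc

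The Lamb2 window held 3 CG dinucleotides and 43.6% G and C, and the Lamb1 window 14 CG dinucleotides and 62% G and C. Of 32851 RefSeq promoter windows of that length, 71% had as many CG dinucleotides as Lamb2 or more, and 29.4% as many as Lamb1 or more, the median being 6. The letters GGGCGG, searched on both strands, occurred 2 times in the Lamb1 window and 0 times in that of Lamb2, and 32.7% of all windows held them. TATAAA, also searched on both strands, was found in neither window and in 12.4% of all. Windows of 5 of the laminin genes were read, and any on chromosome 18, where Lama3 lies, were left out. None was available for Lama1, Lama4 or Lamc1, which leaves Lamb2 as the only laminin gene that fell with a window. The window of Lama5 had 19 CG dinucleotides and 4 matches to GGGCGG, that of Lama2 had 0 CG dinucleotides, and the 2 windows of Lamb3, from different annotated starts, had 2 and 3. These matches describe the letters of the windows and were not tested against expression.

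On the arrays, Lamb2 (10588942) read 6.22, 6.28 and 6.39 in Bmi1-overexpressing neurospheres and 7.51, 7.64 and 7.55 in empty vector neurospheres. The groups were 1.12 apart at their nearest arrays. The means were 6.30 ± 0.089 with Bmi1 and 7.57 ± 0.065 with the empty vector (SD, n = 3 each), a log2 difference of -1.27 (SE 0.077, 95% confidence interval -1.46 to -1.08, limma adjusted p = 0.00083) and a 2.41-fold lower value. Lamb1 (10395163) read 7.93, 8.08 and 7.99 in Bmi1-overexpressing neurospheres and 8.09, 8.50 and 8.33 in empty vector neurospheres. Its groups were separated by only 0.011, and the log2 difference of -0.31 (95% confidence interval -0.59 to -0.026) did not pass the test (limma, adjusted p = 0.21).

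Lamb3, on chromosome 1, encodes the beta chain of the epithelial laminin that anchors the epidermis. Its probe set (10352838) read 4.40, 4.60 and 4.49 in Bmi1-overexpressing neurospheres and 4.00, 4.55 and 4.32 in empty vector neurospheres. The groups overlapped, and the log2 difference of 0.21 (95% confidence interval -0.15 to 0.56) did not pass (limma, adjusted p = 0.52).

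Lamc1, on chromosome 1, encodes the gamma chain shared by most laminins. Lamc1 (10358816) read 7.58, 7.77 and 7.76 in Bmi1-overexpressing neurospheres and 8.30, 8.70 and 8.46 in empty vector neurospheres. The groups were 0.53 apart. The means were 7.71 ± 0.11 with Bmi1 and 8.49 ± 0.20 with the empty vector (SD, n = 3 each), a log2 difference of -0.78 (SE 0.12, 95% confidence interval -1.07 to -0.49, limma adjusted p = 0.017) and a 1.72-fold lower value. This call was near the threshold. It was lost without Bmi1 replicate 1 (limma, adjusted p = 0.065), Bmi1 replicate 2 (0.055), Bmi1 replicate 3 (0.054) or empty vector replicate 3 (0.065), while the log2 difference stayed between -0.88 and -0.68. Lamc3, another gamma chain, had a log2 difference of 0.14 with overlapping groups (limma, adjusted p = 0.64).

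**Figure D2:**
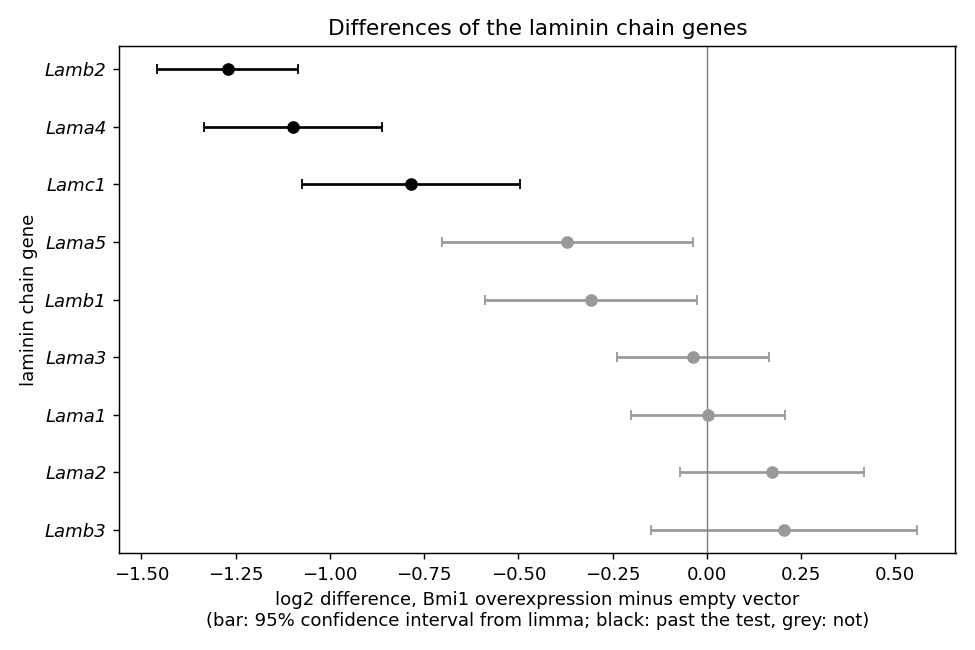
Log2 difference, Bmi1 overexpression minus empty vector, for each laminin chain gene with its 95% confidence interval from limma (n = 3 arrays each). The intervals of Lamb2, Lama4 and Lamc1 lie wholly below -0.49, those of Lama5 and Lamb1 end just below 0, and the remaining 4 span 0.

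Of the 9 laminin genes, 5 had groups that did not overlap, all 5 lower with Bmi1. Of all genes, 15.9% (3180 of 19938) did not overlap and were lower with Bmi1, 15.3% did not overlap and were higher, which makes 31.3% in all. A single gene with 3 against 3 arrays cannot go below p = 0.1 in a two-sided exact permutation test, and all 5 reached that value. The arrays of a group also shared an order. Bmi1 replicate 1 was the lowest of its group for 7 of the 9 genes, empty vector replicate 1 the lowest of its group for 7, and empty vector replicate 2 the highest for 8. The deviations within a group were thus shared by most of the laminin genes. This order was not counted over all genes, so it cannot be called particular to them.

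To compare chains of a class, the log2 value of one chain was subtracted from that of another on the same array, for 10 alpha and 3 beta pairs. Probe effects cancel when this gap is compared between groups. The gap of Lamb1 over Lamb2 was 0.96 larger in Bmi1-overexpressing neurospheres than in empty vector neurospheres, and that of Lama4 over Lama5 was 0.73 smaller (a difference of -0.73). Neither overlapped between the groups. For Lama1 over Lama5 the difference was 0.37 and the groups overlapped. In all, 9 of the 13 pairs did not overlap, with exact permutation p = 0.1, the smallest this design allows (two-sided), and p = 0.14 after Benjamini-Hochberg adjustment over the 13 pairs. No pair could therefore pass a threshold of 0.05.

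**Figure D3:**
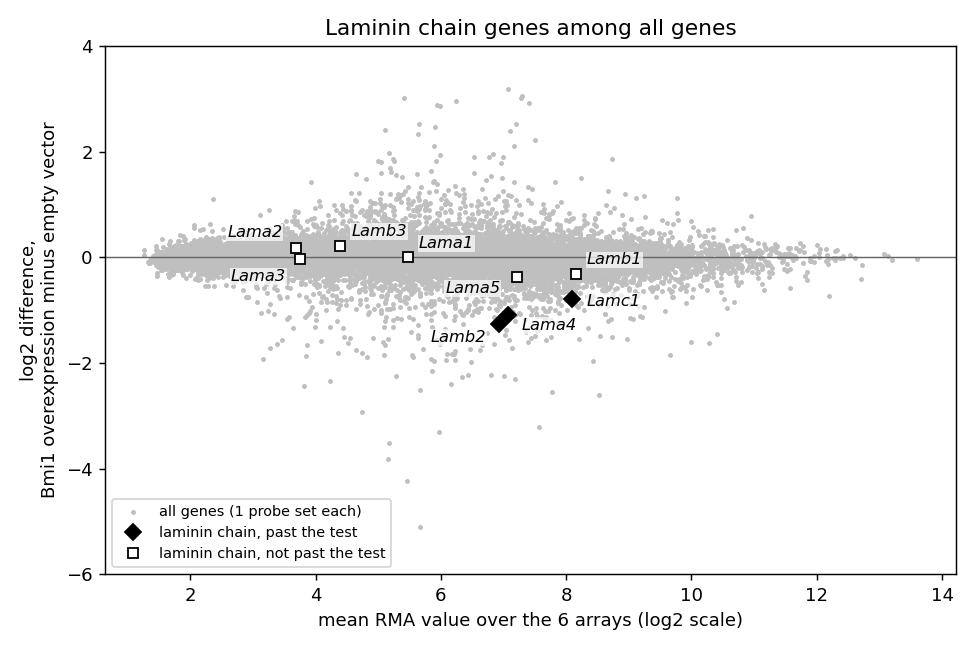
Log2 difference, Bmi1 overexpression minus empty vector, against the mean RMA value over the 6 arrays (log2 scale) for 19938 genes (gray points), with the laminin chain genes past the test as black diamonds and the others as open squares. A lower difference than that of Lamb2, Lama4 and Lamc1 was found for 0.48%, 0.66% and 1.40% of all genes, whatever their brightness. Lama2 and Lama3 lie at means of 3.68 and 3.74, at the dim end of the laminin genes.

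Other components of basement membranes changed in both directions. Of 26 measured partners, 3 fell, 2 rose and 21 did not pass, with a median log2 difference of 0.01. By the same test 4.37% of all genes fell and 2.98% rose. Nid2, a nidogen that links laminin to collagen IV, read 6.24, 6.17 and 6.13 in Bmi1-overexpressing neurospheres and 6.80, 7.09 and 7.12 in empty vector neurospheres. It fell by 0.83 on the log2 scale (limma, adjusted p = 0.0082). Its paralog Nid1 had a log2 difference of 0.29 (limma, adjusted p = 0.31). Ntn4, a netrin that binds the laminin gamma1 short arm and interrupts laminin networks, read 7.05, 7.01 and 7.02 with Bmi1 and 7.55, 7.84 and 7.82 with the empty vector, a log2 difference of -0.71 (limma, adjusted p = 0.01). Both falls held with any single array left out.

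Collagen IV, the second network of basement membranes, moved in both directions. Col4a1 read 6.27, 6.16 and 6.48 in Bmi1-overexpressing neurospheres and 5.47, 5.80 and 5.69 in empty vector neurospheres, and it rose by 0.65 on the log2 scale (limma, adjusted p = 0.035). Col4a5 fell by 0.46 (adjusted p = 0.041), and Fbln1, a fibulin of the matrix, rose by 0.53 (adjusted p = 0.021). The Col4a1 call was lost with any 1 array left out (adjusted p = 0.062 to 0.11), the Col4a5 call in 5 of 6 cases (up to 0.13, without empty vector replicate 2) and the Fbln1 call in 4 of 6 (up to 0.084, without empty vector replicate 3). Col4a2 had a log2 difference of 0.19 (limma, adjusted p = 0.24). The basement membrane proteoglycans perlecan, encoded by Hspg2, and agrin, encoded by Agrn, differed by -0.11 and -0.41 on the log2 scale (limma, adjusted p = 0.55 and 0.19), and of this pair only Agrn had groups that did not overlap.

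**Figure D4:**
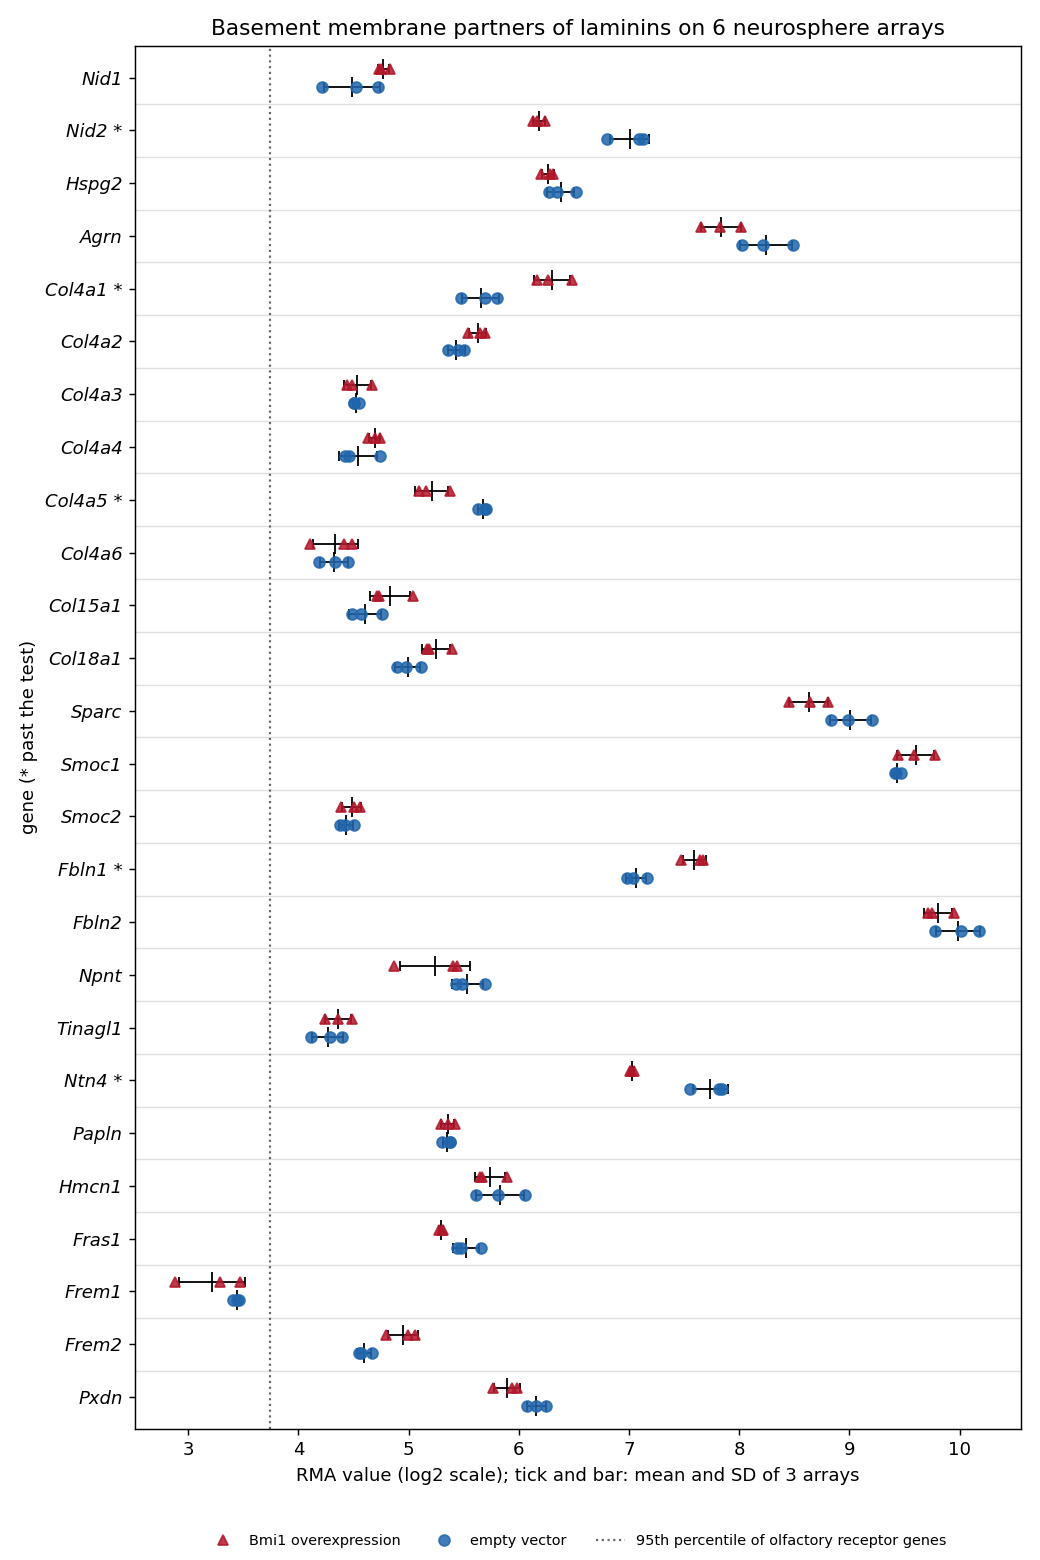
RMA values (log2 scale) of basement membrane partners on each array, Bmi1-overexpressing neurospheres (triangles) above empty vector neurospheres (circles); ticks and bars are group means with SD (n = 3 each) and the dotted line is the 95th percentile of olfactory receptor genes. Nid2, with means of 6.18 with Bmi1 and 7.01 with the empty vector, and Ntn4 are lower with Bmi1, Col4a1 is higher, and Hspg2 overlaps.

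Among 15 laminin receptors, 3 fell, 1 rose and 11 did not pass, with a median log2 difference of -0.0030. By the same test 4.37% of all genes fell and 2.98% rose. Without adjustment, limma gave a p under 0.05 to 5 receptors that were lower and 4 that were higher. The shares of all genes were 11.9% lower and 10.8% higher. Dag1, which encodes both subunits of dystroglycan, read 9.20, 9.41 and 9.53 in Bmi1-overexpressing neurospheres and 10.04, 10.05 and 9.94 in empty vector neurospheres, and it fell by 0.63 on the log2 scale (limma, adjusted p = 0.019). Mcam, a cell surface receptor that binds the alpha4 chain, read 6.34, 6.56 and 6.52 with Bmi1 and 5.64, 5.49 and 5.51 with the empty vector. It rose by 0.93 (adjusted p = 0.0033), whereas the gene of its ligand, Lama4, fell. Sdc2 and Sdc4, syndecans that carry heparan sulfate, fell by 0.50 and 0.64 (adjusted p = 0.021 and 0.024). Of these 4 calls, that of Mcam held with any single array left out, at adjusted p up to 0.022. That of Dag1 was kept in 2 of 6 cases (up to 0.077, without empty vector replicate 2), that of Sdc4 in 1 (up to 0.087, without Bmi1 replicate 2) and that of Sdc2 in 0 (0.051 to 0.079).

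The laminin-binding integrins did not pass the test. Itgb1, the common beta subunit, had a log2 difference of -0.21 with groups that did not overlap (limma, adjusted p = 0.22). Itga6, its laminin-binding partner, had a log2 difference of -0.06 (95% confidence interval -0.25 to 0.14, adjusted p = 0.76). Itga7, the laminin receptor subunit of muscle, read 5.65, 5.75 and 6.95 in Bmi1-overexpressing neurospheres and 5.23, 5.27 and 5.59 in empty vector neurospheres (adjusted p = 0.3), with 1 Bmi1 array far above the rest.

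**Figure D5:**
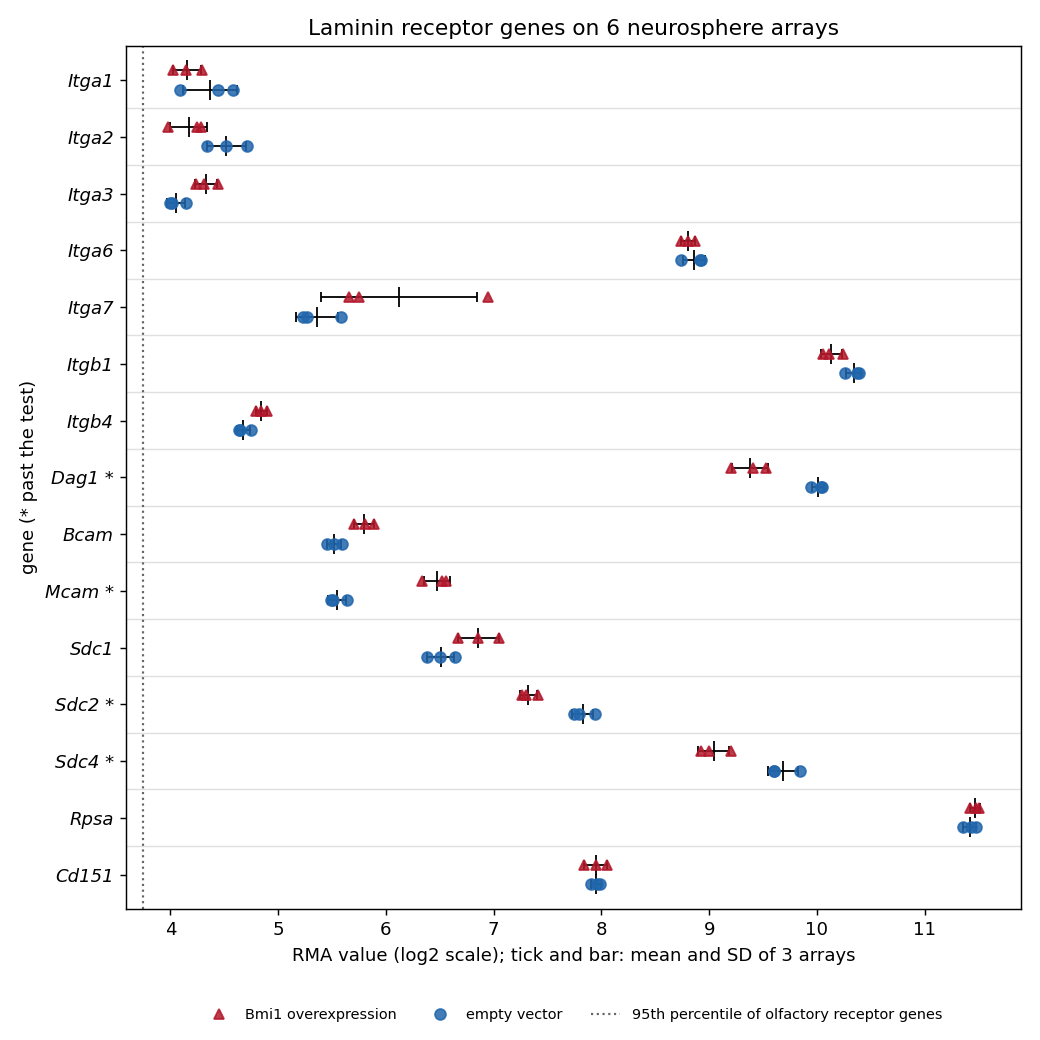
RMA values (log2 scale) of laminin receptors on each array, Bmi1-overexpressing neurospheres (triangles) above empty vector neurospheres (circles); ticks and bars are group means with SD (n = 3 each) and the dotted line is the 95th percentile of olfactory receptor genes. Mcam is higher with Bmi1, Dag1, Sdc2 and Sdc4 are lower, and Itga6 overlaps.

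Of 14 measured genes of the dystroglycan complex and its glycosylation, 2 fell, 0 rose and 12 did not pass, with a median log2 difference of -0.19, and 13 of the 14 had a difference below 0, as did 46.9% of all genes. By limma without adjustment 5 were lower and 1 was higher at p under 0.05, against 11.9% of all genes lower and 10.8% higher. Sgce, a sarcoglycan, fell by 1.09 on the log2 scale (limma, adjusted p = 0.001), reading 6.58, 6.65 and 6.69 with Bmi1 and 7.67, 7.81 and 7.71 with the empty vector. Utrn, which encodes utrophin and links dystroglycan to actin, fell by 0.49 (adjusted p = 0.03), a call lost with any 1 array left out (0.051 to 0.1).

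Of 14 measured integrin adaptors, 3 fell, 0 rose and 11 did not pass, with a median log2 difference of -0.14. By limma without adjustment 6 were lower and 1 was higher at p under 0.05, where 11.9% of all genes were lower and 10.8% higher. Pxn, encoding the focal adhesion scaffold paxillin, fell by 0.46 (limma, adjusted p = 0.01), Parva, encoding the actin-binding parvin, by 0.42 (adjusted p = 0.022) and Tln1, encoding talin, which activates integrins, by 0.45 (adjusted p = 0.037). The Pxn call was lost in 1 of 6 cases (0.053, without empty vector replicate 2), and those of Parva and Tln1 were each kept in 1 of 6 (up to 0.089 and 0.13, both without empty vector replicate 2).

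Of 10 proteases listed for cleaving laminins, directly or by activating another protease, 1 rose, 0 fell and 9 did not pass. By limma without adjustment 2 were higher and 2 were lower at p under 0.05 (10.8% of all genes higher and 11.9% lower). Mmp14, a membrane-bound metalloprotease, read 9.46, 9.49 and 9.63 in Bmi1-overexpressing neurospheres and 7.89, 8.22 and 8.91 in empty vector neurospheres. It rose by 1.19 on the log2 scale (limma, adjusted p = 0.048), with the control arrays widely spread, and the call was kept in 1 of 6 cases with an array left out (up to 0.15, without empty vector replicate 2).

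Because Lama4, Lamb2 and Lamc1 are expressed in vessels, markers of other cells of the ventricle wall were read beside them. Of 10 endothelial markers, 0 passed limma (1 higher and 0 lower at an unadjusted p under 0.05). Their mean level was 3.99 to 4.02 on the Bmi1 arrays and 3.92 to 3.97 on the empty vector arrays, and 3 of the 10, Pecam1, Tek and Emcn, were at or under the olfactory receptor 95th percentile. Of 14 pericyte and fibroblast markers, Pdgfra rose by 1.00 and Acta2 fell by 1.34, with mean levels of 4.41 to 4.58 with Bmi1 and 4.38 to 4.45 with the empty vector, and 6 were at or under that percentile, Pdgfrb and Rgs5 among them. Of 10 meningeal and choroid plexus markers 0 passed (0 in either direction without adjustment), with mean levels of 3.90 to 3.95 with Bmi1 and 3.89 to 4.03 with the empty vector, and 6 were at or under it. The 10 microglial markers had 0 calls in limma (0 at an unadjusted p under 0.05), and the 8 ependymal markers had 0 calls (1 lower at an unadjusted p under 0.05). Of the microglial markers 5, and of the ependymal markers 4, were at or under the olfactory receptor 95th percentile.

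Some markers of neural lineages differed between the groups. By the same test 2.98% of all genes rose and 4.37% fell. Of 10 astrocyte markers 5 rose, with mean levels of 7.76 to 8.05 on the Bmi1 arrays and 6.87 to 7.06 on the empty vector arrays, and 1 of the 10, Gfap, was under the olfactory receptor 95th percentile. The largest rises were those of Ndrg2, Ntsr2 and Kcnj10 (3.045, 2.53 and 1.78 on the log2 scale). The other 5 of the 10 did not pass, Gfap, Aldh1l1, S100b and Aldoc among them. Of 11 oligodendrocyte lineage markers 3 rose, with mean levels of 5.95 to 6.12 with Bmi1 and 5.49 to 5.61 with the empty vector. Pdgfra, 1 of these 3, and Cspg4 are also in the pericyte and fibroblast list, so the Pdgfra call counts in both. Of 11 neuroblast and neuron markers 5 rose and 1 fell, with mean levels of 5.48 to 5.50 with Bmi1 and 5.08 to 5.19 with the empty vector. At or under the olfactory receptor 95th percentile were 3 of these 11, among them Dcx (mean 3.25), 1 of the 5 that rose. The same held for 1 oligodendrocyte lineage marker, Enpp6. Of 11 neural stem/progenitor markers 2 rose, Prom1 and Hes5, with mean levels of 9.42 to 9.54 with Bmi1 and 9.21 to 9.25 with the empty vector. At an unadjusted p under 0.05 in limma, 6 astrocyte markers were higher and 2, Aldoc and S100b, were lower. Counts higher and lower were 6 and 0 for the oligodendrocyte lineage and 6 and 2 for neuroblasts and neurons. For stem/progenitor markers they were 5 and 1, and of all genes 10.8% were higher and 11.9% lower. Whether these marker differences reflect a change in the mix of cells, and their part in the laminin differences, was not tested.

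The genes whose centred values over the 6 arrays lay nearest to those of Lamb2, the called laminin gene with the largest fall, were Slc5a3, a myo-inositol transporter, Tmem47, a membrane protein of cell junctions, and Bcas1, a gene of myelinating oligodendrocytes. Their root mean square distances on the log2 scale were 0.069, 0.076 and 0.084, and their log2 differences -1.25, -1.17 and -1.32.

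The nearest measured genes on each side of the 3 laminin genes that fell, chosen after the laminin values were seen, were read for comparison. Beside Lamb2, Ccdc71 and Usp19 had log2 differences of -0.05 and -0.31 (limma, adjusted p = 0.87 and 0.088), while the next genes out, Klhdc8b and Qars, fell by 0.52 and 0.57 (adjusted p = 0.021 and 0.012). Beside Lama4, Rfpl4b and Fam229b differed by 0.25 and -0.39 on the log2 scale (limma, adjusted p = 0.27 and 0.13). Beside Lamc1, Nmnat2 and E330020D12Rik showed differences of 0.41 and 0.06 on the log2 scale (limma, adjusted p = 0.058 and 0.86). None of the 6 immediate neighbours passed the test. The next genes out from Lama4, 5930403N24Rik and Tube1, had log2 differences of 0.03 and 0.09. Those from Lamc1, Arpc5 and Shcbp1l, had 0.21 and -4.3e-05, and none of these passed either. Of all genes, 4.37% fell by the same test. Rfpl4b, E330020D12Rik and Shcbp1l, with means of 2.71, 3.38 and 2.45, lay under the olfactory receptor 95th percentile, where a fall could hardly be measured.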

How the data were processed

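Total RNA (300 ng) of 6 neurosphere samples was hybridised, 1 sample to an array. The deposited log2 values came from RMA, which corrects background, applies quantile normalization and summarises each probe set, run by the authors with Affymetrix Expression Console, both tools being named in the submitters' processing notes. Tool versions, library file and genome build were not given in the sources used here. Array medians were 4.37 to 4.45, and arrays correlated at 0.991 to 0.993 within groups and 0.985 to 0.987 between them. The number of arrays, 3 in each group, limits the precision.

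Gene names came from the annotation of the array, which gives 1 gene for 21789 of 35557 probe sets, several for 1621, left unnamed, and none for 12147. Of the 21789, 21698 matched RefSeq genes by Entrez identifier. For each gene the probe set with the highest mean was used. Bmi1 overexpression was set against empty vector in limma 3.58.1 (R 4.3.3, functions lmFit and eBayes, two-sided, no filter). P-values were adjusted over all 35557 probe sets by the Benjamini-Hochberg method, and "rose" or "fell" means an adjusted p under 0.05. The procedure was tested on simulated data. Pairs of chains were compared by exact permutation tests. Sequences came from RefSeq promoter windows (GRCm38.p6), whose 250 upstream bases were used. Figures were drawn with matplotlib 3.10.9.

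The laminin genes and the lists (basement membrane partners, receptors, dystroglycan complex, integrin adaptors, proteases, Lamc3 and cell markers) were chosen with earlier results of these data known. All laminin genes were named, and of each partner list up to 6 called genes by smallest adjusted p plus a few set genes. Alternatives were other tests, filters at a mean of 5 or 6, 1 probe set for each gene, other scalings and variance priors, array weights, a replicate block and each array left out.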

Additional observations from a re-analysis of the deposited data

How the results depend on the processing

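Of 19 alternatives, 10 (other tests, filters, variance priors, the block and the handling of probe sets) leave the log2 difference of a laminin gene as it is and bear only on its p. Under the other 9, which were median centring, quantile normalization, array weights and each array left out, Lama4, Lamb2 and Lamc1 kept their direction. Lamb2 passed under all 19, with log2 differences of -1.32 to -1.23. Lama4 passed under 18, with -1.16 to -1.03, and missed the threshold in the Welch form of the t-test (adjusted p = 0.051). Lamc1 passed under 12 and missed it under 7. With single arrays left out, 2 to 3 laminin genes passed (2 to 3 falls and 0 rises), as did 974 to 1275 probe sets, 2 to 4 basement membrane partners, 1 to 3 laminin receptors, 1 gene of the dystroglycan complex each time, 0 to 3 integrin adaptors and 0 to 1 proteases.

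The remaining counts that moved are set against 2025 probe sets, 5 partners, 4 receptors, 2 genes of the dystroglycan complex, 3 adaptors and 1 protease. The methods' t-test at its thresholds (p under 0.001 and a log2 difference of at least 1) called 300 probe sets, 0 partners, 0 receptors, 1 dystroglycan complex gene, 0 adaptors and 0 proteases, and with Benjamini-Hochberg adjustment 2 partners, 1 receptor, 1 dystroglycan complex gene and 0 proteases. Its Welch form called 1 laminin gene (1 fall), 210 probe sets, 0 partners, 0 receptors, 1 dystroglycan complex gene, 1 adaptor and 0 proteases. A filter at a mean of 5 gave 3424 probe sets, 5 dystroglycan complex genes, 6 adaptors and 2 proteases, and a filter at 6 gave 3193, 4, 6 and 2. The filter at 5 left out Lama2, Lama3 and Lamb3, and that at 6 also Lama1. Testing 1 probe set for each gene gave 6 dystroglycan complex genes and 6 adaptors, while calls over all 19938 genes also rose, to 2539 from 1465. A variance trend gave 3190 probe sets, 5 dystroglycan complex genes and 6 adaptors. Median centring and the robust prior each gave 0 proteases. The cause of these moves was not tested.

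Whether the replicate numbers pair the samples is not known. Deviations from the group means, taken over all probe sets, correlated at 3.39e-05, -0.032 and -0.018 between same-numbered arrays. With so few arrays these values cannot decide it. With the replicate number as a block, the 3 laminin genes passed (limma, adjusted p = 0.016 for Lama4, 0.014 for Lamb2 and 0.036 for Lamc1,), and the counts were 850 probe sets, 0 partners, 2 receptors, 1 dystroglycan complex gene, 0 adaptors and 0 proteases.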
